A study of Mus musculus with 20 samples.

Results

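Hepatic de novo lipogenesis was followed through 10 genes chosen by name: *Acly*, *Acaca*, *Acacb*, *Fasn*, *Elovl6*, *Scd1* and *Me1*, which encode enzymes of the pathway, and *Srebf1*, *Mlxipl* and *Thrsp*, which regulate it. Each symbol matched 1 of the 54532 Ensembl genes in the count table, and all 10 were among the 12289 genes with enough reads to be tested. On HFD, *Scd1* was 3.73-fold and *Me1* 4.14-fold lower after bypass than after sham surgery. By sign alone, 6 of the 10 genes were lower and 4 higher in this comparison. *Fasn* and *Acly* were among the 4 and were not called. *Srebf1* was higher on HFD than on chow after either operation, though in RYGB mice the call held in only 13 of 20 fits without 1 mouse. *Mlxipl* was lowest in Sham HFD, and no member passed the test between the chow-fed groups.

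De novo lipogenesis turns surplus carbohydrate into fat. Citrate exported from mitochondria is cleaved by ATP-citrate lyase to acetyl-CoA, acetyl-CoA carboxylase makes malonyl-CoA from it, and fatty acid synthase joins these units into palmitate with NADPH as the reductant, which is then elongated and desaturated. In liver the genes of the pathway are switched on after feeding by the transcription factors SREBP-1c, which responds to insulin, and ChREBP, which responds to glucose, and the pathway is known for its activity in fatty liver.

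The livers came from male C57BL/6J mice that all received high-fat diet (HFD) for 12 weeks, then Roux-en-Y gastric bypass (RYGB) or a sham operation, and then chow or HFD for 8 weeks. The 4 groups (Sham Chow and Sham HFD, RYGB Chow and RYGB HFD) held 5 mice each with 1 RNA-seq library per mouse, so p-values measure the spread between these mice. No group was kept on chow throughout, and the study describes the livers as fasted. Groups of this cohort also differ in body weight, which cannot be told apart from group here. Libraries held 14604854 to 22537498 counted reads, scaled by TMM factors of 0.916 to 1.13. RYGB Chow replicate 3 stood apart with the highest factor and the smallest share of reads in its 10 most abundant genes, 14.4% against at least 16.3% in every other library. In bulk liver, fewer cells of a type and less RNA per cell cannot be told apart.

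The stretches upstream of 6 members are shown because *Fasn*, *Acly* and *Thrsp* varied together from mouse to mouse and *Me1*, *Srebf1* and *Mlxipl* differed between groups. RefSeq (GRCm38.p6) listed starts for 9 of the 10 members, 13 in all, and the 150 bases before each start were searched on both strands for an NF-Y box (CCAAT), a GC box (GGGCGG), an E-box (CACGTG) and a sterol regulatory element (TCACNCCAC). *Scd1* had no entry. Not every window is printed. Those of *Acaca* and *Elovl6*, which also varied together from mouse to mouse (r = 0.79), held no match. The second *Me1* start and the first *Srebf1* start held none either. The unprinted *Acacb* window held 1 NF-Y box and that of the second *Srebf1* start 2 GC boxes. Capitals mark the matches, read 5′ to 3′ on the gene's strand.
Fasn (chr11:120824548-120824697, minus strand): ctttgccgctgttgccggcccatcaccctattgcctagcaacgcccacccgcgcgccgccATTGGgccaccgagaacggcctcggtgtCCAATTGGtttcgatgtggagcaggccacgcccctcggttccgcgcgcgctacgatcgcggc
Thrsp (chr7:97417551-97417700, minus strand): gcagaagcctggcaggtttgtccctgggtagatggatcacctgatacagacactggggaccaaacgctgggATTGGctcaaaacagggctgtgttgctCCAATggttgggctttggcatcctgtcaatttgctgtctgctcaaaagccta
Acly (chr11:100528001-100528150, minus strand): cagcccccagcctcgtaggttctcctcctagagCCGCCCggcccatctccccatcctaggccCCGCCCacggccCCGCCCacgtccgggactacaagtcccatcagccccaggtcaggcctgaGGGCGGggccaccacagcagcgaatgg
Me1, first listed start (chr9:86695915-86696064, minus strand): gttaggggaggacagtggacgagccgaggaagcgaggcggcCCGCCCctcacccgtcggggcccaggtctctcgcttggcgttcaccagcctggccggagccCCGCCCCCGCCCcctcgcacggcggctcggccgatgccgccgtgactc
Srebf1, last listed start (chr11:60210472-60210621, minus strand): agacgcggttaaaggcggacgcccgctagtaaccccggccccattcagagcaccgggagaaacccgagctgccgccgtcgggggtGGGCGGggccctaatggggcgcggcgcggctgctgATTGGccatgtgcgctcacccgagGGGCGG
Mlxipl, first listed start (chr5:135106741-135106890, plus strand): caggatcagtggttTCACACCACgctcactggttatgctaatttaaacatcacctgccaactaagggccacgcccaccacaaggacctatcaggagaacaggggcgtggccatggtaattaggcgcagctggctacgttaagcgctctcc
Mlxipl, second listed start (chr5:135089740-135089889, plus strand): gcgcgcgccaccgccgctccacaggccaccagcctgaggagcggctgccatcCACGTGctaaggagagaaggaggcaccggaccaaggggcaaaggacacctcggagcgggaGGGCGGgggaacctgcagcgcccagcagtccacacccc

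*Fasn* held 3 NF-Y boxes, at 90, 62 and 59 bases before the start, the last 2 overlapping on opposite strands. *Thrsp* held 2, at 79 and 52 bases. *Acly* held 4 GC boxes, and the first *Me1* start held 3, the last 2 of them side by side. Against the GENCODE M21 gene bounds, the windows of *Thrsp*, the last *Srebf1* start and the first *Mlxipl* start lie inside the gene. That of the first *Me1* start overlaps its 5′ end. Of the unprinted windows, those of *Acaca*, *Acacb* and the second *Srebf1* and *Me1* starts also lie inside, and that of *Elovl6* overlaps its 5′ end. For *Acaca*, *Acacb* and *Thrsp*, no window searched lies before the outer bound of the gene. An NF-Y box was present in 4 of the 13 windows and in 24.5% of 32851 such windows across the genome, and a GC box in 5 of the 13 and in 28.6% of all windows. Rarer were the E-box, found 98 bases before the second *Mlxipl* start, where it reads the same on both strands, and in 4.3% of windows, and the sterol regulatory element, found 136 bases before the first *Mlxipl* start and in 0.639%. A match describes the letters only, and a window without a match says nothing of more distant sequence. *Srebf1* has 3 listed starts and *Mlxipl* and *Me1* have 2 each, so counts per gene do not separate SREBP-1a from SREBP-1c or ChREBP-alpha from ChREBP-beta.

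Levels are given in CPM, counts scaled to a common library size after TMM, and between genes as CPM per kilobase of exon. Exon length is the union of all annotated exons of a gene, which can exceed the length of a single transcript. Gene positions are those of GENCODE M21 on GRCm38. Per kilobase, *Scd1*, the stearoyl-CoA desaturase that makes oleate and palmitoleate, was the most abundant member in every group, with means of 2485 in Sham Chow, 2535 in Sham HFD, 1899.7 in RYGB Chow and 680.1 in RYGB HFD. *Acaca* was the lowest in all groups, with means between 5.22 and 6.83. That rank depends on its exon union of 17074 bases, the longest of the members. In CPM without length it was the lowest in Sham Chow and Sham HFD only. *Scd1* alone took 0.687% to 1.81% of all counted reads in Sham Chow and 0.143% to 0.577% in RYGB HFD.

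**Figure D1:**
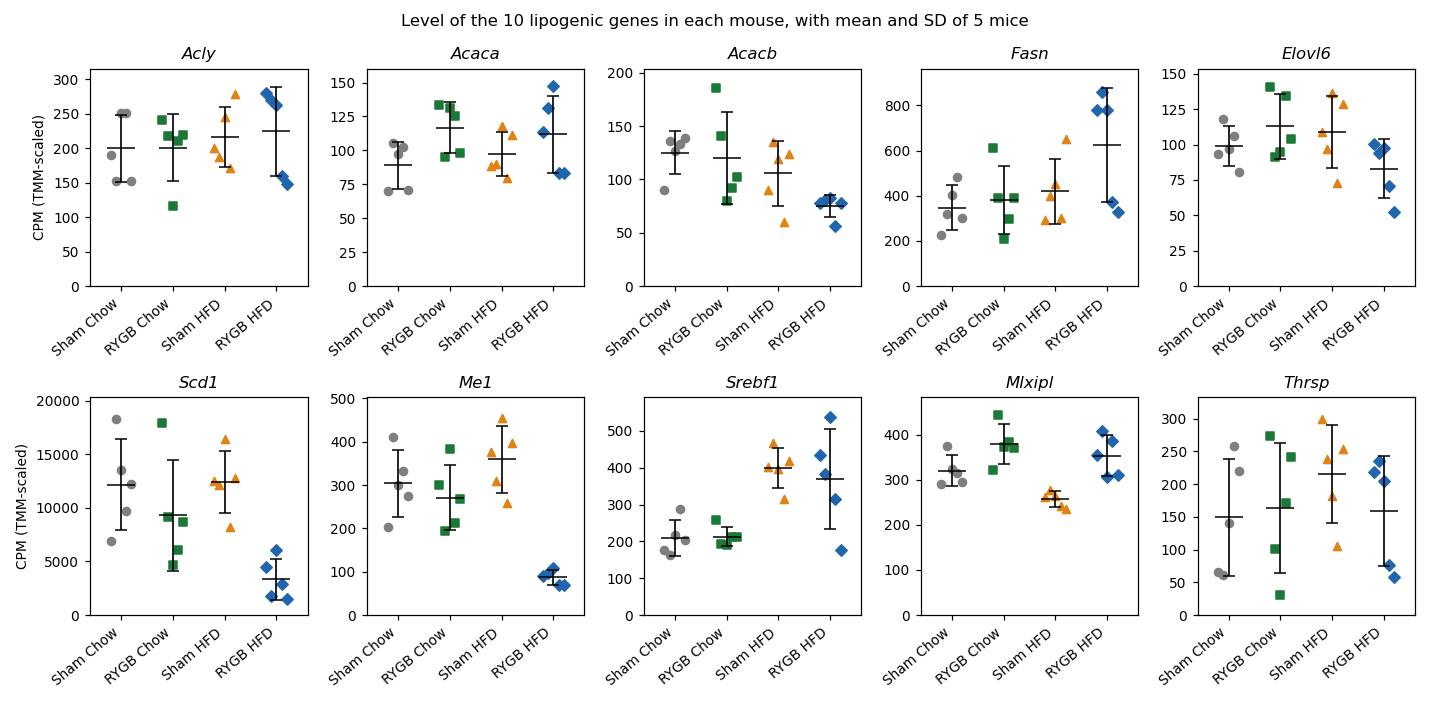
Level of each of the 10 genes in each of the 20 mice, in CPM after TMM scaling, by group. Points are mice in the order of their replicate numbers, bars show the mean and SD of 5 mice, and every axis starts at 0. For *Scd1* and *Me1* the 5 RYGB HFD mice sit below all Sham HFD mice, and for *Mlxipl* the 5 Sham HFD mice sit below all others.

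Each comparison asked whether surgery or diet changed the pathway, given as the log2 fold change of the group named second over that named first and tested by edgeR's quasi-likelihood test with Benjamini-Hochberg adjustment over all tested genes. A gene was called at an adjusted p under 0.05. On chow, surgery gave 0 calls among the 10 members, where 0.0488% of all tested genes were called higher and 0.00814% lower. At an unadjusted p under 0.05, which 10.8% of all tested genes reached, there were 2, *Acaca* and *Mlxipl*, both higher in RYGB Chow, with adjusted p of 0.4 and 0.36, and DESeq2 gave 0 calls too. The groups overlapped for all 10 members, against 1.33% of all genes that did not overlap in either direction.

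On HFD, 3 members were called between the operations. *Me1* and *Scd1* were lower in RYGB HFD, where 7.9% of all genes were called lower, and *Mlxipl* was higher, where 8.54% were called higher. These were also the 3 members whose groups did not overlap, against 14.7% of all genes. The median log2 fold change was -0.25 over the 10 members and 0.01 over all tested genes. With scaling by library size only, calls over all genes shifted from 1050 higher and 971 lower to 542 higher and 1497 lower, and the same 3 members were called.

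HFD against chow gave 2 calls in sham mice, *Srebf1* higher and *Mlxipl* lower, where 10.9% of all genes were called higher and 10.7% lower. Both were also without overlap, against 16.5% of all genes. With library size only, the calls over all genes moved from 1337 higher and 1319 lower to 2279 higher and 554 lower, and *Mlxipl* was no longer called (adjusted p = 0.21). In RYGB mice, *Me1* and *Scd1* were lower on HFD, where 1.65% of all genes were called lower, and *Srebf1* was higher, where 1.99% were called higher. *Me1* was the 1 member without overlap, against 5.05% of all genes.

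The surgery by diet interaction, which is the HFD difference in RYGB mice less that in sham mice, was called for 1 member, *Me1*, lower, where 2.58% of all genes were called lower and 2.48% higher. With library size only, those calls moved from 305 higher and 317 lower to 151 higher and 597 lower. The comparisons share groups and are not independent of each other.

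**Figure D2:**
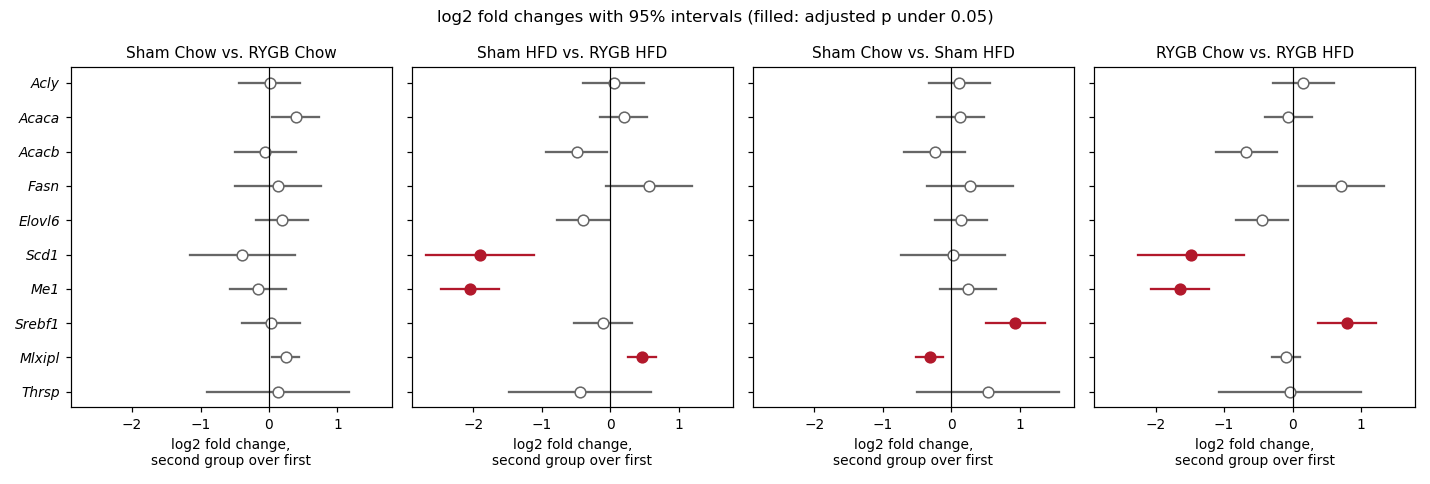
The log2 fold change (second group over first) of each gene in the 4 comparisons, with its 95% interval from the edgeR model of 20 mice. Filled red points passed at an adjusted p under 0.05: none on chow, *Scd1*, *Me1* and *Mlxipl* between the operations on HFD, *Srebf1* and *Mlxipl* between the diets in sham mice, and *Scd1*, *Me1* and *Srebf1* between the diets in RYGB mice.

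*Acly* (ENSMUSG00000020917, chr11:100476353-100528000, minus strand), ATP-citrate lyase, makes the cytosolic acetyl-CoA of the pathway. Its CPM, in replicates 1 to 5, was 190.1, 153, 251.7, 251 and 153 in Sham Chow, 201, 188, 245, 171 and 278 in Sham HFD, 242, 218, 116, 210.0 and 219 in RYGB Chow and 281, 271, 263, 160.2 and 148 in RYGB HFD. The 4 ranges overlapped throughout, and the lowest value of all was RYGB Chow replicate 3. Between the operations on HFD the log2 fold change was 0.05 (95% interval -0.39 to 0.50, adjusted p = 0.898), and its sign turned with library size only, to -0.04.

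*Acaca* (ENSMUSG00000020532, chr11:84129672-84401651, plus strand) and *Acacb* (ENSMUSG00000042010, chr5:114146535-114250761, plus strand) encode the acetyl-CoA carboxylases. ACC1, from *Acaca*, makes malonyl-CoA for synthesis in the cytosol, and ACC2, from *Acacb*, makes it at the mitochondrial surface, where it restrains fatty acid import. *Acaca* read 69.7, 105, 97.1, 103 and 71.0 CPM in Sham Chow, 88.9, 90.2, 118, 79.9 and 111 in Sham HFD, 133, 95.1, 132, 125 and 97.9 in RYGB Chow and 113, 131, 147, 83.4 and 83.5 in RYGB HFD, and no pair of groups was without overlap. For *Acaca* the largest difference lay on chow (log2 fold change 0.39, SE 0.17, adjusted p = 0.4, 95% interval 0.04 to 0.74), and it did not pass.

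*Acacb* read 90.0, 136, 127, 133 and 139 CPM in Sham Chow, 89.7, 135, 119, 60.3 and 124 in Sham HFD, 186, 141, 80.1, 91.7 and 103 in RYGB Chow and 78.2, 80.8, 82.3, 56.7 and 78.2 in RYGB HFD. All 5 RYGB HFD mice lay below every Sham Chow mouse, from 56.7 to 82.3, and overlapped with RYGB Chow and Sham HFD. The difference from Sham HFD did not pass (log2 fold change -0.49, SE 0.22, adjusted p = 0.124), and passed without Sham HFD replicate 4 (adjusted p = 0.037). That from RYGB Chow did not pass either (log2 fold change -0.68, SE 0.22, adjusted p = 0.0852), and passed by DESeq2 (adjusted p = 0.0301) and without RYGB Chow replicate 3 (adjusted p = 0.0472). Across both surgery and diet, RYGB HFD was lower than Sham Chow (log2 fold change -0.73, SE 0.22, adjusted p = 0.0427), a comparison in which 7.67% of all genes were called, and this call held in 10 of 20 fits without 1 mouse, with an adjusted p of up to 0.102.

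*Fasn* (ENSMUSG00000025153, chr11:120805846-120824547, minus strand), fatty acid synthase, builds palmitate. It read 227, 317, 405, 484 and 299.7 CPM in Sham Chow and 613, 389.8, 209, 296 and 392 in RYGB Chow. In Sham HFD it read 295, 400.02, 451, 299.6 and 649.6, and in RYGB HFD 778, 860.3, 778, 374 and 327. RYGB HFD was split, with replicates 1 to 3 above every other mouse of the study and replicates 4 and 5 inside the Sham HFD range. The means were 419 ± 145 (SD, n = 5) in Sham HFD and 623 ± 252.1 (SD, n = 5) in RYGB HFD, and the difference did not pass (log2 fold change 0.57, SE 0.30, adjusted p = 0.205, 95% interval -0.05 to 1.20). Without 1 mouse it ran from 0.42 to 0.79 on the log2 scale, and the adjusted p from 0.102 to 0.412. On the same scale the difference between RYGB Chow and RYGB HFD was 0.71 (SE 0.30, adjusted p = 0.203).

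*Elovl6* (ENSMUSG00000041220, chr3:129532355-129638495, plus strand) encodes the elongase that extends palmitate to stearate, the substrate of SCD1. It read 93.3, 118, 97.2, 106 and 80.9 CPM in Sham Chow and 141, 91.0, 94.6, 134 and 104 in RYGB Chow, against 109, 97.1, 137, 72.7 and 129 in Sham HFD and 100.3, 94.0, 97.4, 70.7 and 52.0 in RYGB HFD. RYGB HFD replicates 4 and 5 gave the 2 lowest values of the 20 mice, and the other 3 lay within every other group's range. Neither the difference between the operations on HFD (log2 fold change -0.39, SE 0.18, adjusted p = 0.147) nor that between the diets in RYGB mice (log2 fold change -0.45, SE 0.18, adjusted p = 0.19) passed.

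*Scd1* (ENSMUSG00000037071, chr19:44394455-44407879, minus strand) read 6947, 18306, 13549, 9716 and 12266 CPM in Sham Chow and 17956, 9143, 4675, 6026 and 8666 in RYGB Chow. In Sham HFD it read 12485, 12122, 16387, 8189 and 12821, and in RYGB HFD 4483, 1779, 6029, 2874 and 1472. Every RYGB HFD mouse lay below every sham mouse on either diet, while replicate 3 alone reached into the RYGB Chow range, which began at 4675 in RYGB Chow replicate 3. The level in RYGB HFD was 3.73-fold lower than in Sham HFD (log2 fold change -1.90, SE 0.38, adjusted p = 0.0016; exact permutation test, two-sided p = 0.00794, the smallest that 5 mice against 5 allow). It was 3.65-fold lower than in Sham Chow (log2 fold change -1.87, SE 0.38, adjusted p = 0.00498) and 2.79-fold lower than in RYGB Chow (log2 fold change -1.48, SE 0.37, adjusted p = 0.0311).

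The first 2 of these *Scd1* calls held in all 20 fits without 1 mouse and in all 7 other alternatives. The third was lost without RYGB Chow replicate 1 (adjusted p = 0.0838) or RYGB HFD replicate 2 (0.0667), 4 (0.069) or 5 (0.0572), and in a model of the 2 groups only (0.107). The interaction for *Scd1* did not pass (log2 fold change -1.51, SE 0.52, adjusted p = 0.0967), except without RYGB HFD replicate 3 (adjusted p = 0.0388). Between the diets in sham mice the log2 fold change of *Scd1* was 0.03 (95% interval -0.73 to 0.79, adjusted p = 0.966).

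*Me1* (ENSMUSG00000032418, chr9:86581371-86695953, minus strand), cytosolic malic enzyme, supplies NADPH for fatty acid synthesis by turning malate into pyruvate. It read 202, 411, 301, 333 and 274 CPM in Sham Chow and 299, 194, 383, 212 and 267 in RYGB Chow. In Sham HFD it read 377, 309, 455, 259 and 397, and in RYGB HFD 89.8, 96.6, 108, 69.7 and 70.1. The highest RYGB HFD mouse, at 108, lay below the lowest of the other 15, RYGB Chow replicate 2 at 194. *Me1* in RYGB HFD was 4.14-fold lower than in Sham HFD (log2 fold change -2.05, SE 0.20, adjusted p = 2.27e-06), 3.50-fold lower than in Sham Chow (log2 fold change -1.81, SE 0.20, adjusted p = 2.22e-05) and 3.12-fold lower than in RYGB Chow (log2 fold change -1.64, SE 0.20, adjusted p = 6.49e-05). It was the only member with a called interaction (log2 fold change -1.88, SE 0.28, adjusted p = 0.000772): HFD moved it by 0.24 on the log2 scale in sham mice, which did not pass, and by -1.64 in RYGB mice. All of these calls held in each of the 20 fits without 1 mouse.

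Among the regulators, *Srebf1* (ENSMUSG00000020538, chr11:60199089-60222581, minus strand) encodes SREBP-1, whose 1c form drives lipogenic genes. It read 177, 162, 216, 287 and 204 CPM in Sham Chow, 403, 465.95, 396, 314 and 418 in Sham HFD, 258, 193, 191, 213 and 211 in RYGB Chow and 436, 384, 538, 314 and 178 in RYGB HFD. All Sham HFD mice lay above all chow-fed mice of either operation, and so did 4 of 5 RYGB HFD mice, with replicate 5 at 178 as the exception. HFD against chow gave 1.91-fold more in sham mice (log2 fold change 0.93, SE 0.21, adjusted p = 0.00321) and 1.74-fold more in RYGB mice (log2 fold change 0.80, SE 0.21, adjusted p = 0.0342), and the interaction was -0.14 (95% interval -0.74 to 0.46, adjusted p = 0.833).

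The *Srebf1* call in sham mice held in all 20 fits without 1 mouse. The call in RYGB mice held in 13 of them and was lost without RYGB Chow replicate 2, 3, 4 or 5 or RYGB HFD replicate 1, 2 or 3, where the adjusted p rose to at most 0.109, and in a model of the 2 groups only (0.107). Between the operations on HFD the difference was -0.11 (95% interval -0.54 to 0.31, adjusted p = 0.754). *Rai1* overlaps *Srebf1* on the opposite strand, and whether counting used strand is not given in the sources used here. The same limit holds for *Me1* (*A330041J22Rik*), *Mlxipl* (*Gm43500*), *Acaca* (*Gm11437*), *Acacb* (*Gm13784*) and *Elovl6* (*Gm35986*), each overlapped on the opposite strand by the gene in brackets. Genes on the same strand also overlap *Me1* (*Gm38230*), *Acaca* (*Gm37391*), *Elovl6* (*Gm43072*), *Acly* (*Mir7116*) and *Srebf1* (*Mir6921*, *Mir6922*). Counting by strand would not separate these.

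*Mlxipl* (ENSMUSG00000005373, chr5:135089890-135138382, plus strand) encodes ChREBP. It read 290.0, 375, 323, 316 and 294 CPM in Sham Chow, 262, 278, 265, 242 and 235 in Sham HFD, 320.3, 444, 372, 383 and 371 in RYGB Chow and 355, 407, 305, 386 and 311 in RYGB HFD. The highest Sham HFD mouse, at 278, lay below the lowest of the other 15, at 290.0, and the other 3 groups overlapped. Sham HFD was lower than Sham Chow (log2 fold change -0.32, SE 0.10, adjusted p = 0.024), RYGB HFD was 1.38-fold higher than Sham HFD (log2 fold change 0.46, SE 0.10, adjusted p = 0.00258), and RYGB Chow was 1.47-fold higher than Sham HFD (log2 fold change -0.56, SE 0.10, adjusted p = 0.000421 of Sham HFD over RYGB Chow), a comparison in which 22.1% of all genes were called.

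The last 2 *Mlxipl* calls held in all 20 fits without 1 mouse. The first was lost without Sham Chow replicate 2 (adjusted p = 0.0688), Sham HFD replicate 4 (0.058) or Sham HFD replicate 5 (0.0649). Hepatocyte markers moved in the same comparisons. Of the 8 on the list, 5 were called lower in Sham HFD than in Sham Chow, and 6 were called higher and 1 lower in RYGB HFD against Sham HFD. Their summed CPM ran from 82868 to 103457 in Sham Chow, 70043 to 82908 in Sham HFD, 74684 to 123402 in RYGB Chow and 100109 to 119489 in RYGB HFD, with 0 of the 8 at 0, and their part in the *Mlxipl* result was not tested.

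*Thrsp* (ENSMUSG00000035686, chr7:97412938-97417730, minus strand), known as Spot 14, is a small nuclear protein induced by thyroid hormone and carbohydrate together with the lipogenic enzymes. It read 66.3, 60.8, 140.0, 258 and 219.7 CPM in Sham Chow and 274, 100.1, 31.1, 171 and 241 in RYGB Chow. In Sham HFD it read 300.02, 239, 182, 105 and 253, and in RYGB HFD 219, 235, 205, 77.1 and 57.7. All 4 groups overlapped. The standard error of its log2 fold change, near 0.50 in each comparison, was the largest of the 10, and no comparison passed. Between the operations on HFD the 95% interval ran from -1.48 to 0.60, which holds both no change and a 2-fold fall.

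The levels were also set against *Fasn* within each mouse. The ratio of *Scd1* to *Fasn*, each in CPM per kilobase, was 12.9, 4.63, 17.3, 17.2 and 10.1 in RYGB HFD, and it ran from 44.9 to 129 in Sham Chow, 45.5 to 65.6 in RYGB Chow and 44.2 to 94.8 in Sham HFD. The ratio of *Me1* to *Fasn* was 0.328, 0.319, 0.395, 0.530 and 0.611 in RYGB HFD, and it ran from 1.95 to 3.69 in Sham Chow, 1.39 to 5.22 in RYGB Chow and 1.74 to 3.64 in Sham HFD. For both ratios all 5 RYGB HFD mice lay below the other 15. The ratio of *Elovl6* to *Fasn* ran from 0.186 to 0.322 in RYGB HFD and from 0.338 to 0.630 in Sham HFD, also without overlap, while *Acly* to *Fasn* ran from 0.653 to 0.939 and from 0.888 to 1.41 and overlapped. The ratios were chosen after the levels were seen and are given without a test.

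**Figure D3:**
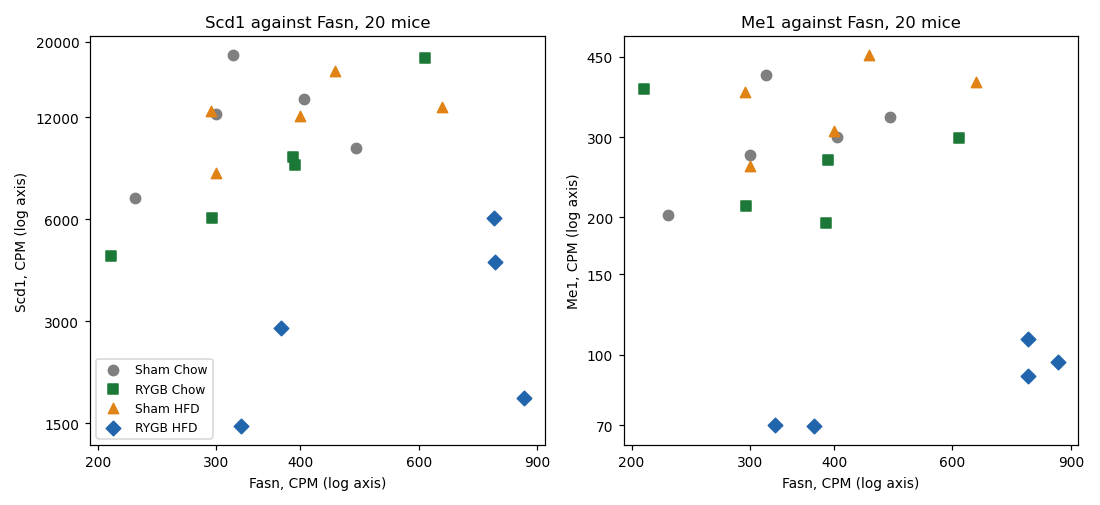
CPM of *Scd1* (left) and *Me1* (right) against CPM of *Fasn* in each of the 20 mice, all axes logarithmic, with groups marked by colour and shape. The 5 RYGB HFD mice lie below the other 15 in both panels relative to their *Fasn* level, at *Fasn* levels from 327 to 860.3 CPM.

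Members also rose and fell together from mouse to mouse within a group. After the group mean was taken off log2 of CPM + 0.5, 39 of the 45 pairs of members had a positive Pearson's r over the 20 mice, with a median of 0.48 and a range from -0.13 to 0.87. The closest pair was *Acly* and *Fasn* (r = 0.87), followed by *Acaca* and *Me1* (0.80) and *Acaca* and *Elovl6* (0.79). Without the 2 mice furthest from the median in the gene named first, these were 0.81, 0.78 and 0.76. That of *Elovl6* and *Srebf1* fell from 0.66 to 0.40. *Fasn* had the highest median r with the other 9 members, 0.69, and *Mlxipl* the lowest, -0.02. All members of a mouse come from the same library, so its depth and scaling are shared among them, and these values are a description. Pairs of other tested genes were not summarized in this way, so whether the pattern is particular to the members was not tested. RYGB HFD replicates 4 and 5 were the 2 lowest mice of their group for 8 of the 10 members, all but *Scd1* and *Mlxipl*, and Sham HFD replicate 4 was the lowest of its group for 8.

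**Figure D4:**
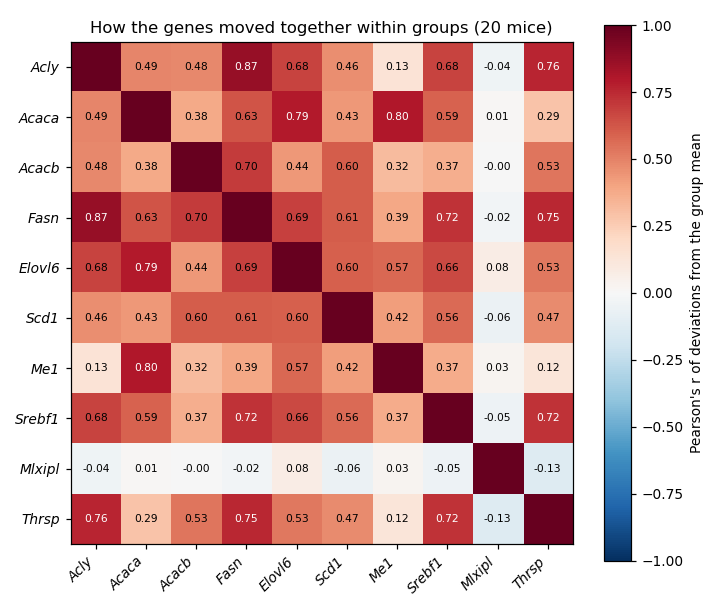
Pearson's r between the 10 genes across 20 mice, computed on log2 of CPM + 0.5 after removal of each group's mean, from -1 (blue) to 1 (red). *Acly* and *Fasn* form the darkest pair at 0.87, and the *Mlxipl* row stays near 0, from -0.13 to 0.08.

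By the same measure, the tested gene most like *Fasn* was *Lss*, lanosterol synthase of the cholesterol pathway (r = 0.87), followed by *Mvd*, also of that pathway (0.85), and *Lss* was the most alike for *Acly* too (0.88). *Srebf1* was closest to the clock genes *Per3* (0.89) and *Per2* (0.86), and among the genes most like *Thrsp* were *Upp2* (0.89) and *Shpk* (0.89). For *Scd1* it was *Cidea*, a lipid droplet protein (0.81), for *Me1* *BC005537* (0.88), for *Acaca* *Myo9b* (0.88), for *Acacb* *Arrdc2* (0.79), for *Elovl6* *Pcyox1* (0.89) and for *Mlxipl* *Tmem125* (0.81). Each was picked as 1 of the 3 highest among all tested genes outside the 10, so these values are high by selection. Of 12 clock genes tested, 1 was called between the operations on HFD, *Nr1d1*, higher at 0.42 (SE 0.14, adjusted p = 0.0376). This is near the share of all tested genes called higher there, 8.54%. The call held in 13 of 20 fits without 1 mouse and was lost with library size only and with the replicate number as a block. None of the 12 was called between the diets in either operation.

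A list of 10 genes held suppliers of citrate, acetyl-CoA or NADPH and other genes of the pentose phosphate pathway. Of these, 3 were called lower and 1 higher in RYGB HFD against Sham HFD. Over all tested genes, 7.9% were called lower and 8.54% higher there. The 3 called lower were *Tkt*, transketolase, at -0.54 (SE 0.10, adjusted p = 0.000918) on the log2 scale, *Taldo1*, transaldolase, at -0.47 (SE 0.10, adjusted p = 0.00264), and *Pgd*, the pentose phosphate dehydrogenase that makes NADPH, at -0.63 (SE 0.14, adjusted p = 0.00382). The gene called higher was *H6pd*, which makes NADPH inside the endoplasmic reticulum, at 0.57 (SE 0.11, adjusted p = 0.00128). *Pgd* averaged 32.0 ± 5.603 CPM in Sham Chow, 50.3 ± 6.72 in Sham HFD, 34.3 ± 7.40 in RYGB Chow and 32.5 ± 4.25 in RYGB HFD (SD, n = 5 each), with the highest mean in Sham HFD.

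Between the diets in sham mice, *Pgd* was higher, at 0.65 (SE 0.14, adjusted p = 0.00281), and *H6pd* lower, at -0.42 (SE 0.11, adjusted p = 0.0104), the latter lost with library size only (adjusted p = 0.0742). In RYGB mice 0 of the 10 were called. *Slc25a1*, the mitochondrial citrate carrier, *G6pdx*, the first enzyme of the pentose phosphate pathway, and *Idh1* were not called in any of the 4 comparisons. The median of the 10 was -0.06 in Sham HFD vs. RYGB HFD, against 0.01 over all tested genes.

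**Figure D5:**
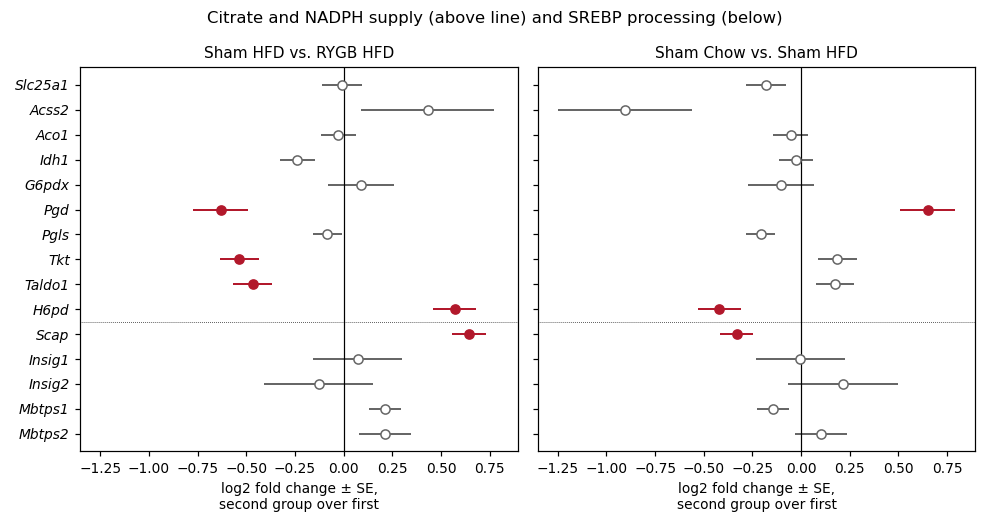
The log2 fold change ± SE (second group over first, edgeR model of 20 mice) between the operations on HFD (left) and between the diets in sham mice (right). Above the dotted line are 10 genes of citrate and NADPH supply and the pentose phosphate pathway, and below it 5 genes of SREBP processing. Filled red points passed at an adjusted p under 0.05: *Pgd*, *Tkt*, *Taldo1*, *H6pd* and *Scap* on the left, *Pgd*, *H6pd* and *Scap* on the right.

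SREBP-1 must be escorted by SCAP to the Golgi and cleaved there before it is active, and INSIG proteins hold it back. Of 5 genes of this step, *Scap* was the 1 called between the operations on HFD, higher in RYGB HFD at 0.64 (SE 0.09, adjusted p = 3.86e-05), with means of 123 ± 11.2 CPM in Sham HFD and 191 ± 7.70 in RYGB HFD (SD, n = 5 each). It was lower in Sham HFD than in Sham Chow, at -0.33 (SE 0.09, adjusted p = 0.0094), a call lost with library size only (adjusted p = 0.0648), and its interaction was called, at 0.66 (SE 0.12, adjusted p = 0.00388). In RYGB mice it was called higher on HFD in 11 of 20 fits without 1 mouse. Of the 8 hepatocyte markers, 4 were called higher and 0 lower in the interaction, where 2.48% of all genes were called higher. Their median log2 fold change was 0.55 there, -0.46 between the diets in sham mice and 0.58 between the operations on HFD. Their part in the *Scap* and *H6pd* results was not tested. *Insig1*, *Insig2*, *Mbtps1* and *Mbtps2* were not called in any of the 4 comparisons.

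Of 14 further regulators of lipogenic genes, 2 were called higher and 1 lower in RYGB HFD against Sham HFD. Over all tested genes, 8.54% were called higher and 7.9% lower there. *Pparg*, a nuclear receptor that rises in fatty liver, was lower, at -0.61 (SE 0.15, adjusted p = 0.00657), and it was higher in Sham HFD than in Sham Chow, at 0.62 (SE 0.15, adjusted p = 0.00571). *Nfyc*, a subunit of NF-Y, at 0.32 (SE 0.09, adjusted p = 0.0161), and *Rxra*, at 0.29 (SE 0.09, adjusted p = 0.0245), were higher, and both calls were lost with library size only and with no filter on low counts. *Usf2*, at -0.37 (SE 0.11, adjusted p = 0.0155), was lower in Sham HFD than in Sham Chow, a call also lost with library size only. *Nr1h3*, which encodes LXR-alpha, an activator of *Srebf1* transcription, had an adjusted p of 0.797 between the operations on HFD and 0.99 between the diets in sham mice.

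Of 10 genes that control acetyl-CoA carboxylase or its product, *Mlycd*, which breaks down malonyl-CoA, was called lower in Sham HFD than in Sham Chow, at -0.44 (SE 0.08, adjusted p = 0.000943), and higher in RYGB HFD against Sham HFD, at 0.32 (SE 0.08, adjusted p = 0.00989). The second call was lost with library size only (adjusted p = 0.0868). Over all tested genes, 10.7% were called lower in the first of these comparisons and 8.54% higher in the second. Hepatocyte markers moved in the same directions, with medians of -0.46 and 0.58, and their part in the *Mlycd* result was not tested. The AMP kinase subunits on this list, which phosphorylate the carboxylases, were not called in any of the 4 comparisons.

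Of 11 tested genes from a list of other SREBP-1, ChREBP or LXR targets, 5 were called higher and 0 lower in Sham HFD than in Sham Chow. Over all tested genes, 10.9% were called higher and 10.7% lower there. *Elovl5*, an elongase of polyunsaturated fatty acids, was higher by 0.83 (SE 0.15, adjusted p = 0.000462), *Fads2*, a desaturase of the same chain, by 0.63 (SE 0.15, adjusted p = 0.00478), *Agpat2* by 0.28 (SE 0.07, adjusted p = 0.0108) and *Gpam*, which starts triglyceride synthesis, by 0.58 (SE 0.17, adjusted p = 0.0202) on the log2 scale. The *Gpam* call was lost without Sham Chow replicate 5 or Sham HFD replicate 5, with an adjusted p of at most 0.0726. In RYGB mice, 2 were called higher on HFD, where 1.99% of all genes were called higher. They were *Fads1*, at 0.50 (SE 0.11, adjusted p = 0.0151), and *Fads2*, at 0.56 (SE 0.15, adjusted p = 0.0367), the latter in 10 of 20 fits without 1 mouse. Between the operations on HFD, *Elovl5* was lower in RYGB HFD, at -0.64 (SE 0.14, adjusted p = 0.00417), while *Fads1* and *Fads2* had adjusted p-values of 0.724 and 0.903. *Pklr*, a ChREBP target, was not called in any of the 4 comparisons.

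Relatives of the members were read beside them. *Scd2*, a desaturase of other tissues, averaged 6.10 ± 1.61 CPM in Sham HFD and 6.50 ± 0.891 in RYGB HFD (SD, n = 5 each), a log2 fold change of 0.09 (SE 0.22, adjusted p = 0.817), and was called higher in Sham HFD than in Sham Chow in 12 of 20 fits without 1 mouse. *Scd3* and *Scd4* were below the filter with at most 39 and 6 counts in any mouse. *Elovl3*, an elongase of long saturated chains, was lower in Sham HFD than in Sham Chow at -1.91 (SE 0.41, adjusted p = 0.00249) and higher in RYGB HFD against Sham HFD at 1.38 (SE 0.40, adjusted p = 0.0211), the latter lost without Sham HFD replicate 5 or RYGB HFD replicate 5, in a model of the 2 groups only and with the replicate number as a block (adjusted p of at most 0.133). *Me2*, the mitochondrial malic enzyme, had a log2 fold change of 0.07 (SE 0.36, adjusted p = 0.923) between the operations on HFD. How reads that match several of these related genes were counted is not given in the sources used here. The mitochondrial fatty acid synthesis pathway, a separate system with its own enzymes, had 0 of 6 tested genes called in this comparison and 1, *Oxsm*, called higher in Sham HFD than in Sham Chow.

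Genes of fasting and feeding were read beside the members, since lipogenic transcripts fall with fasting and these livers are described as fasted. Of 10, *Irs2* was called higher and *Pdk4* lower in RYGB HFD against Sham HFD, the latter at -1.89 (SE 0.46, adjusted p = 0.00655). Over all tested genes, 8.54% were called higher and 7.9% lower there. *Irs2* held in 15 of 20 fits without 1 mouse. In Sham HFD against Sham Chow, *Pdk4* was higher, at 1.52 (SE 0.45, adjusted p = 0.0191), and *Pck1*, at -1.11 (SE 0.30, adjusted p = 0.0134), and *Angptl4*, at -0.73 (SE 0.15, adjusted p = 0.00182), lower. In RYGB mice, *G6pc* was lower on HFD, at -1.05 (SE 0.25, adjusted p = 0.0256), a call that held in 16 of 20. *Pck1*, which falls with insulin, had adjusted p-values of 0.301 between the operations on HFD and 0.855 on chow. Their part in the results for the members was not tested.

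Markers of other cell types were read as well. Of the 5 Kupffer cell markers, 3 were called higher in Sham HFD than in Sham Chow, with summed CPM of 89.3 to 234 and 211 to 287, and all 4 tested of 5 stellate cell markers were called higher, with summed CPM of 47.0 to 80.7 and 101 to 143. In Sham HFD vs. RYGB HFD, 0 Kupffer cell markers and 1 stellate cell marker, lower, were called. No cholangiocyte, endothelial, red blood cell or pancreatic marker was called in any of the 4 comparisons, and of 2 tested leukocyte markers 1, *Ptprc*, was called higher in Sham HFD than in Sham Chow. Adipocytes express many of the same lipogenic genes. Of 7 adipocyte markers 3 were tested, *Car3*, *Cfd* and *Cidea*, and *Cidea* was called lower in RYGB HFD against Sham HFD (adjusted p = 0.0149), while *Cfd* was called higher in RYGB HFD against RYGB Chow (adjusted p = 0.0139). In Sham HFD against Sham Chow 0 of the 3 were called, with a median log2 fold change of 2.11. The summed CPM of the 7, mostly from *Car3*, which hepatocytes also express, was 2761 to 3425 in Sham Chow, 2996 to 4367 in Sham HFD, 1157 to 3476 in RYGB Chow and 1644 to 3072 in RYGB HFD. The untested markers were *Adipoq*, *Lep*, *Retn* and *Plin1*. The first 3 of these had at most 16 counts in any mouse, with 0 in some.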

How the data were processed

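Poly-A RNA from 20 livers was made into strand-marking libraries. The authors trimmed reads with Trimmomatic 0.36, aligned them to mm10 with HISAT2 2.1.0 and counted them per gene with featureCounts 1.5.0-p3, and the counts were deposited as raw counts per Ensembl gene. The annotation release, strand setting and treatment of multi-mapping reads are not given in the sources used here. All columns matched a labelled mouse, and no pair was identical.

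The raw counts were tested with edgeR 4.0.16 in R 4.3.3 (TMM factors, quasi-likelihood test, 1 model of 4 groups, Benjamini-Hochberg adjustment) on genes that reached a CPM of 2 in 3 or more mice. The study used DESeq2, which served here as an alternative (1.42.0), beside RLE factors, library size only, other filters, a model of the 2 groups compared, a replicate block and each mouse left out. Exact permutation tests used all 252 splits. The fit was tested on simulated data. The same alternatives for pathway genes and the 2 crossed comparisons were added after seeing the data.

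All 10 members were named. Of each pathway list, up to 4 called genes per comparison with the smallest adjusted p could be named, and for likeness the 3 genes with the highest r. Some results that these rules would name are not reported here. Members and lists were chosen with earlier results of these data known. Gene positions are from GENCODE M21 and starts from RefSeq, both on GRCm38.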

Additional observations from a re-analysis of the deposited data

Results flagged for a closer look

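Of 40 sets of 5 mice, 10 genes in 4 groups, 3 held a mouse set apart from the rest of its group by Dixon's criterion, which chance gives in about 1 of 20 sets. *Acly* was low in RYGB Chow replicate 3, at 116 CPM. *Acacb* was low in Sham Chow replicate 1, at 90.0 CPM, and in RYGB HFD replicate 4, at 56.7 CPM. The diet difference of *Me1* differed between the operations by -1.88 on the log2 scale, tested as an interaction with edgeR (adjusted p = 0.000772).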

How the results depend on the processing

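The calls of *Me1*, *Scd1* and *Mlxipl* between the operations on HFD, of *Me1* between the diets in RYGB mice and in the interaction, and of *Srebf1* between the diets in sham mice held under every alternative and without any 1 mouse. Over the 4 comparisons and the interaction, 331 results under the other alternatives and 943 with 1 mouse left out kept direction and side of the threshold, while 4 and 40 turned sign and 4 and 14 lost the call. Members called between the diets in sham mice fell from 2 to 1 with library size only, and ran from 1 to 2 without 1 mouse. In RYGB mice they fell from 3 to 1 in a model of the 2 groups only, rose to 4 by DESeq2 with *Acacb* added, and ran from 1 to 3 without 1 mouse. Between the operations on HFD they ran from 3 to 4, with *Acacb* added without Sham HFD replicate 4. The interaction gave 1 to 2 without 1 mouse.

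Signs turned for uncalled values. With library size only *Acly* was at -0.0383 between the operations on HFD and -0.0749 in the interaction. With the replicate number as a block *Scd1* was at -0.0166 between the diets in sham mice and *Thrsp* at 0.11 in RYGB mice. Without 1 mouse, the log2 fold change on chow ran from -0.0731 to 0.15 for *Acly*, -0.27 to 0.0595 for *Acacb*, -0.11 to 0.29 for *Fasn*, -0.0519 to 0.16 for *Srebf1* and -0.13 to 0.42 for *Thrsp*. Between the operations on HFD it ran from -0.0408 to 0.17 for *Acly* and -0.29 to 0.0652 for *Srebf1*, and in the interaction from -0.11 to 0.16 and -0.31 to 0.0382. For *Scd1* in sham mice it ran from -0.12 to 0.22, and in RYGB mice from -0.18 to 0.0282 for *Acaca* and -0.31 to 0.23 for *Thrsp*. The causes were not tested.

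Mice of the same replicate number did not deviate together. Over 20 pairs in the 4 comparisons, which share mice, correlations ran from -0.26 to 0.17, and 5 were over 0.1. In 3 of the 20 pairs the mouse of the group named first correlated best with its own number. The block left 2 members called in RYGB mice, without *Srebf1* (adjusted p = 0.0673), and the other counts at 0, 3, 2 and 1. Over all genes, calls on chow were 7, against 92 by DESeq2, 13 with no filter and 0 in a model of the 2 groups, and in RYGB mice 448, against 751 by DESeq2 and 184 in that model. With library size only, the median of all genes was 0.12 between the diets in sham mice and -0.13 in the interaction, where TMM gave 0.00 and 0.02. It moved the calls of RYGB Chow against Sham HFD from 1318 higher and 1401 lower to 1806 and 766. With 5 mice a group, standard errors in the 4 comparisons ran from 0.10 for *Mlxipl* to 0.50 for *Thrsp* on the log2 scale.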
